A study of Mus musculus with 6 samples.

Results

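The phase II conjugation enzymes make drugs, hormones and products of metabolism more soluble by joining them to glutathione, a sugar acid or sulfate. In mouse kidneys with a *Pkd1* mutation, the messages of several of these enzymes were more abundant when the mice were labelled as also lacking the miR-17-92 cluster. *Gsta2*, *Gstk1*, *Ugt2b34*, *Ugt3a1*, *Ugt3a2*, the shared *Ugt1a* locus, *Sult1c2* and *Sult1b1* rose, and no member with a mean level of 1 CPM (read counts scaled to library size) or more fell past the threshold. The genes were taken by symbol from the authors' deposited comparison, as glutathione transferases of the alpha, kappa, mu, omega, pi and theta classes (GST), as enzymes named *Ugt* with a number and the letter a or b (UGT), and as enzymes named *Sult* with a number and a letter from a to e (SULT). They were 58 of the 23276 gene symbols listed, with 20 GST, 20 UGT and 18 SULT genes. The most abundant transcript listed stood for each gene. The rule itself uses symbols and abundance, not the fold changes.

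Total RNA was sequenced from whole kidneys of 6 mice in 2 groups. The 3 *Pkd1* F/RC SKO mice (single knockout) carried Ksp/Cre, a Cre recombinase expressed in renal tubules, with 1 floxed *Pkd1* allele and 1 germline hypomorphic *Pkd1* allele named RC. The 3 *Pkd1* F/RC DKO mice (double knockout) carried the same Ksp/Cre and *Pkd1* alleles and were also homozygous for a floxed miR-17-92 cluster. Both groups were therefore *Pkd1* mutants, and recombination was limited to cells with Cre while all other kidney cells contributed to the RNA. The sample labels give an age of 22 days, and the mice were on the B6 background.

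The deposited table holds 1 result for each transcript and no value for a single kidney. It lists the log2 ratio of DKO to SKO, called the log2 fold change here, the mean log2 CPM, the statistic of edgeR's likelihood ratio test, and p-values before and after Benjamini-Hochberg adjustment over all 54721 transcripts. Values of each mouse, the overlap of the groups and the depth of each library could not be given. The error quoted with each fold change is an approximate standard error (SE), obtained by dividing the size of the log2 fold change by the root of the test statistic. A level in SKO or DKO kidneys is implied by the mean CPM and the fold change, with the mean taken as that of both groups. A gene was called higher or lower at an adjusted p under 0.05.

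The deleted cluster gave no check of the labels. *Mir17hg*, its host transcript, had a log2 fold change of 0.92 (SE 0.41, 4.21 CPM, edgeR adjusted p = 0.154) and so was not lower in DKO kidneys, although reads of the host transcript outside the deleted stretch carry no information on the deletion. *Pkd1*, altered in both groups, had a log2 fold change of -0.66 (SE 0.42, 31.8 CPM, edgeR adjusted p = 0.373). DKO and SKO are therefore used as the names on the labels, and every direction rests on them.

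Glutathione transferases attach the tripeptide glutathione to reactive electrophiles, and several also reduce lipid peroxides. UDP-glucuronosyltransferases sit in the endoplasmic reticulum and transfer glucuronic acid from UDP-glucuronic acid to bilirubin, steroids and drugs. The UGT3 enzymes, which the symbol rule places with them, are known to use other UDP-sugars. Cytosolic sulfotransferases transfer sulfate from the activated donor PAPS to phenols, catecholamines, steroids and thyroid hormones. In the kidney these reactions are best known from the proximal tubule, where organic anion transporters carry many of the conjugates into the urine.

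The families differed in how evenly their members moved. Of the 58 genes, 15 were called higher and 1 lower in DKO kidneys, while 3.76% of all gene symbols were called higher and 3.6% lower. By family, 3 of 20 GST, 10 of 20 UGT and 2 of 18 SULT genes were called higher, and the lower call was a SULT gene. A mean of at least 1 CPM was reached by 31 members, namely 14 GST, 12 UGT and 5 SULT genes. Among these, 14 were called higher and 0 lower, with 2 calls in GST, 10 in UGT and 2 in SULT. The corresponding shares of the 13001 genes at this level were 5.44% higher and 5.02% lower. At an unadjusted p under 0.05 from the same test, 19 of the 31 members were higher and 1 was lower, beside 11.3% and 12.4% of all genes. The *Ugt1a* genes share most of their sequence, so the 20 UGT genes hold 1 locus 8 times. With that locus taken as 1 gene, 9 of 51 members were called higher and 1 lower, and 4 of 13 UGT genes were called. The deposited test treats the estimated spread as known. An F distribution with 14 denominator degrees of freedom, a chosen setting, allows for its error. Referred to it, 2 of the 16 calls were left, *Gsta2* and *Gstk1*. With 4 degrees of freedom 0 were left, but there even *Gsta2* had an F-reference adjusted p of 0.520, as did *Gstm5*. A reference that strict leaves little room for any call, so the 0 says little about these genes. The shares of all genes called under the F references are not given, so these losses cannot be set beside those of other genes.

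The median log2 fold change was 0.16 over the 14 GST genes, with a range from -0.99 to 2.10. UGT genes had a median of 1.01 and a range from 0.61 to 1.82, and the median was 1.42 with the *Ugt1a* locus as 1 gene. SULT genes had a median of 1.15 and a range from -0.48 to 1.65. The median of all genes was -0.05. All 12 UGT genes lay above 0, as did 10 of 14 GST and 4 of 5 SULT genes. With the *Ugt1a* locus as 1 gene, 5 of 5 UGT genes lay above 0. The GST family therefore held members on both sides of 0. The other families held a single gene below 0 between them at this level, over only 5 genes each when the locus counts once. The difference between families was not tested. Median SEs were 0.36 for GST, 0.34 for UGT and 0.45 for SULT genes, close to the 0.375 of all genes. In whole kidney RNA, a different number of cells of a type and a different amount of RNA per cell cannot be told apart.

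**Figure D1:**
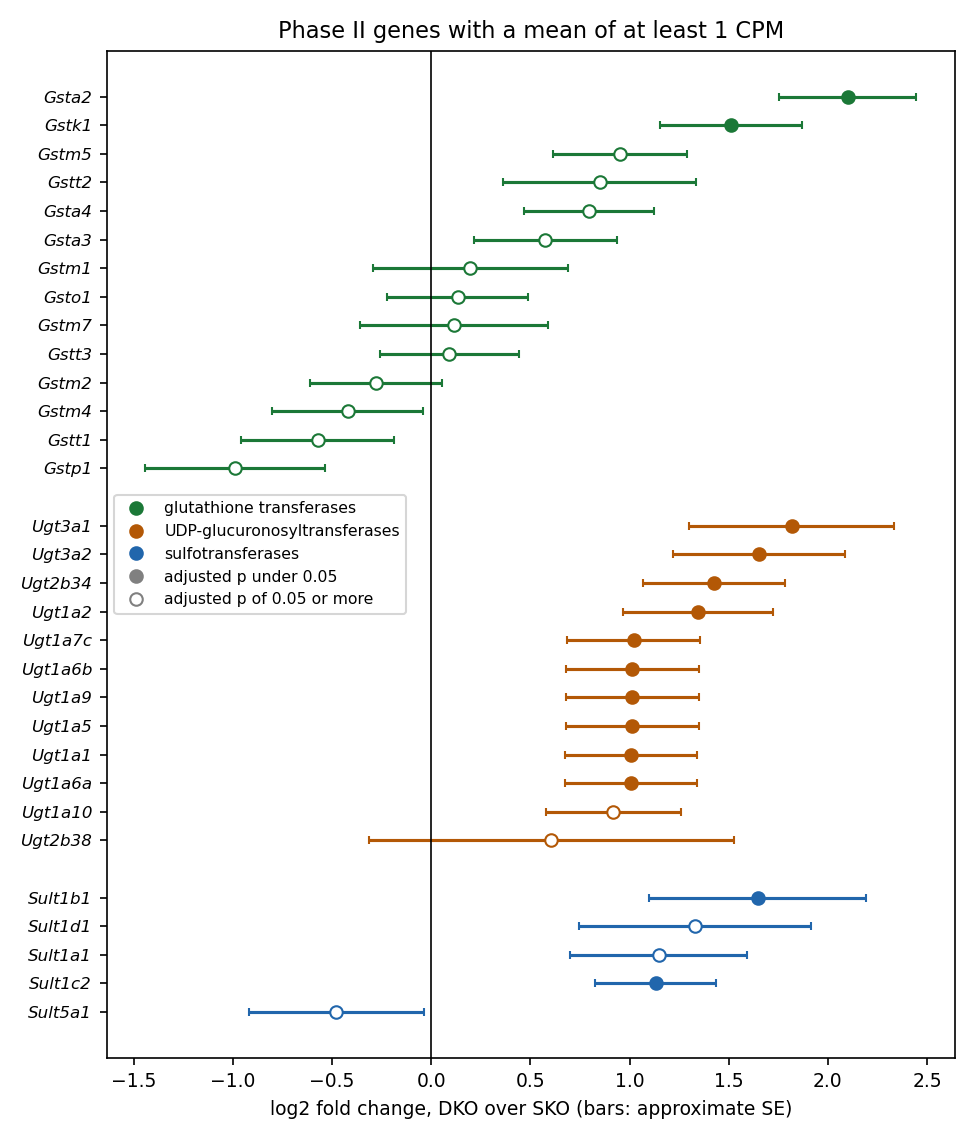
Log2 fold change of DKO over SKO kidneys (horizontal axis) for the 31 phase II genes at 1 CPM or more, grouped by family, with bars of 1 approximate SE. Filled points passed an adjusted p of 0.05. UGT genes all lie above 0, and 8 of them are rows of the shared *Ugt1a* locus. GST genes run from *Gstp1* at -0.99 to *Gsta2* at 2.10.

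**Figure D2:**
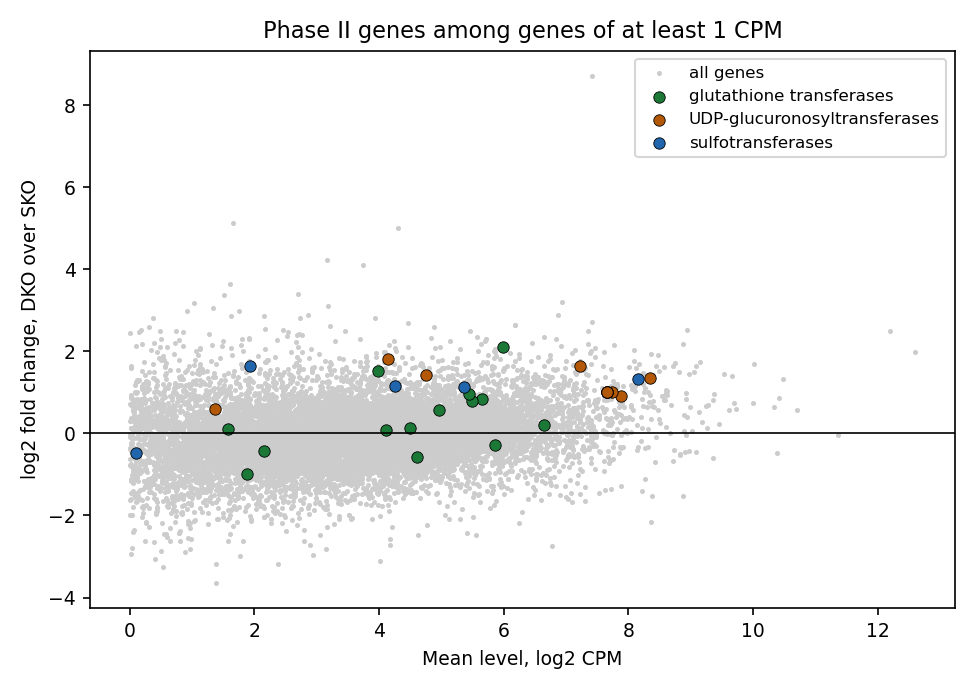
Log2 fold change (vertical axis) against mean level in log2 CPM (horizontal axis) for all 13001 genes with at least 1 CPM in grey, with phase II genes coloured by family. The most abundant UGT and SULT genes lie well above the median of all genes at -0.05, and GST genes lie on both sides of it.

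Alpha class glutathione transferases, which conjugate and detoxify products of lipid peroxidation, held the largest log2 fold change among GST genes of at least 1 CPM. *Gsta2* (chr9:78331018-78355788 of mm10, reverse strand) had an implied 24.1 CPM in SKO and 103 CPM in DKO kidneys. This is a log2 fold change of 2.10 (SE 0.34, edgeR adjusted p = 7.82e-07), or 4.29-fold. Its 3 transcripts listed lay between 2.10 and 2.13. *Gsta4*, which is known for its action on the lipid aldehyde 4-hydroxynonenal, had a log2 fold change of 0.80 (SE 0.33, 45.1 CPM). Its unadjusted p was 0.0153 and its edgeR adjusted p 0.111, so it was not called. *Gsta3* had 0.58 (SE 0.36, 31.1 CPM), also not called. *Gsta2* exceeded *Gsta4* by 1.31 on the log2 scale, with a combined SE of 0.48, and *Gsta3* by 1.52, with a combined SE of 0.50. These pairs were chosen after their values were seen and were not tested. *Gsta1*, next to *Gsta4* on chromosome 9, had a mean of 0.0450 CPM and is listed at -3.22 (SE 1.87, edgeR adjusted p = 0.314). Of all 51-base stretches of the *Gsta2* transcript, the length of a read, 63.3% also occur in transcripts of other genes and 44.3% in *Gsta1*, so reads of these stretches cannot be assigned to 1 of the genes. For *Gsta1* 89.6% of the stretches occur in other genes, so its low level does not show that it was absent.

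*Gstk1*, the kappa class enzyme of mitochondria and peroxisomes, rose from an implied 8.17 to 23.3 CPM, a log2 fold change of 1.51 (SE 0.36, edgeR adjusted p = 0.00136). No 51-base stretch of its transcript was found in another gene. *Gsto2*, an omega class enzyme that reduces dehydroascorbate, was called higher at 1.55 (SE 0.52, edgeR adjusted p = 0.0382), at a mean of only 0.511 CPM. The other omega gene, *Gsto1*, had 0.13 (SE 0.36) at 22.7 CPM. Both omega genes lie side by side on chromosome 19, and the abundant one was the one whose fold change lay within its SE.

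The mu class lies in 1 cluster on chromosome 3 and showed no call among its 7 genes. *Gstm1* was the most abundant GST gene at 100.3 CPM and had a log2 fold change of 0.20 (SE 0.49, edgeR adjusted p = 0.929). Its implied level was 93.5 CPM in SKO and 107 CPM in DKO kidneys. *Gstm2* had -0.28 (SE 0.33, 58.1 CPM, edgeR adjusted p = 0.706), and *Gstm4* -0.42 (SE 0.38, 4.45 CPM). *Gstm5* stood apart from these neighbours with 0.95 (SE 0.34, 43.3 CPM), but its edgeR adjusted p of 0.0522 missed the threshold at an unadjusted p of 0.00472, and it passed at 0.0442 when adjusted over genes of at least 1 CPM. It exceeded *Gstm2* by 1.23 (combined SE 0.47) and *Gstm1* by 0.75 (combined SE 0.60), neither of which was tested. *Gstm7* had 0.12 (SE 0.47), and *Gstm3* and *Gstm6* were below 1 CPM. Of the 51-base stretches of *Gstm1*, 22.7% occur in other transcripts, most of them in the pseudogene *Gstm2-ps1*.

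Theta and pi class genes were not called in either direction. In the theta cluster on chromosome 10, *Gstt2* had a log2 fold change of 0.85 (SE 0.49, 50.3 CPM), *Gstt1* -0.57 (SE 0.39, 24.5 CPM) and *Gstt3* 0.09 (SE 0.35, 17.3 CPM). *Gstp1*, the pi class enzyme, had the lowest value among GST genes of at least 1 CPM at -0.99 (SE 0.45, 3.67 CPM), with an unadjusted p of 0.0295 and an edgeR adjusted p of 0.167. Its paralog *Gstp2*, at 0.0950 CPM, shares 62.1% of the 51-base stretches of *Gstp1*. Summed over all 20 genes, the implied GST level went from 395 to 575 CPM, or 1.46-fold, with *Gstm1* giving 20.7% of the sum.

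The *Ugt1a* locus on the forward strand of chromosome 1 (chr1:88055388-88220002) makes a set of enzymes from alternative first exons, each joined to the same last exons. *Ugt1a1* conjugates bilirubin, and the *Ugt1a6* enzymes act on small phenols. All 8 rows of the locus were above 0 and 7 were called higher, but they share 3 exons exactly and most of the last exon, 1311 bp in all. Rows of *Ugt1a1*, *Ugt1a5*, *Ugt1a6a*, *Ugt1a6b* and *Ugt1a9* were nearly identical, with mean levels of 201 to 202 CPM, log2 fold changes of 1.01, SEs of 0.33 and edgeR adjusted p-values from 0.0333 to 0.0354. These 5 rows thus repeat 1 measurement, that of the shared exons. *Ugt1a7c* had 1.02 (SE 0.34, 214 CPM, edgeR adjusted p = 0.0333), and *Ugt1a10* 0.92 (SE 0.34, 236 CPM), whose edgeR adjusted p of 0.0683 missed the threshold.

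*Ugt1a2* was the row that differed. It was the most abundant at 325 CPM and rose from an implied 184 to 467 CPM, a log2 fold change of 1.35 (SE 0.38, edgeR adjusted p = 0.00946). The lowest row of the locus, 201 CPM, was subtracted from each row to describe what its own exons add. It was assumed that reads of the shared exons were counted on every row and that the lowest row had no others. For *Ugt1a2* the subtraction left 125 CPM, from 50.9 in SKO to 199 in DKO kidneys, a log2 difference of 1.97 or 3.91-fold. Its 900 bp first exon lies at chr1:88200601-88201500. *Ugt1a10* kept 35.0 CPM over a first exon of 926 bp, from 30.2 to 39.9 CPM or 1.32-fold. *Ugt1a7c* kept 13.3 CPM, from 8.37 to 18.3 CPM, although its last exon is also 1005 bp longer than usual. For the 5 remaining first exons less than 2 CPM was left, which for *Ugt1a6b*, the lowest row, is 0 by construction. On those assumptions *Ugt1a1* and *Ugt1a6a* had almost no reads of their own. Per kb of first exon, *Ugt1a2* had 139 CPM and *Ugt1a10* 37.8 CPM. The subtraction is arithmetic on deposited means, carries no error and was not tested.

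**Figure D3:**
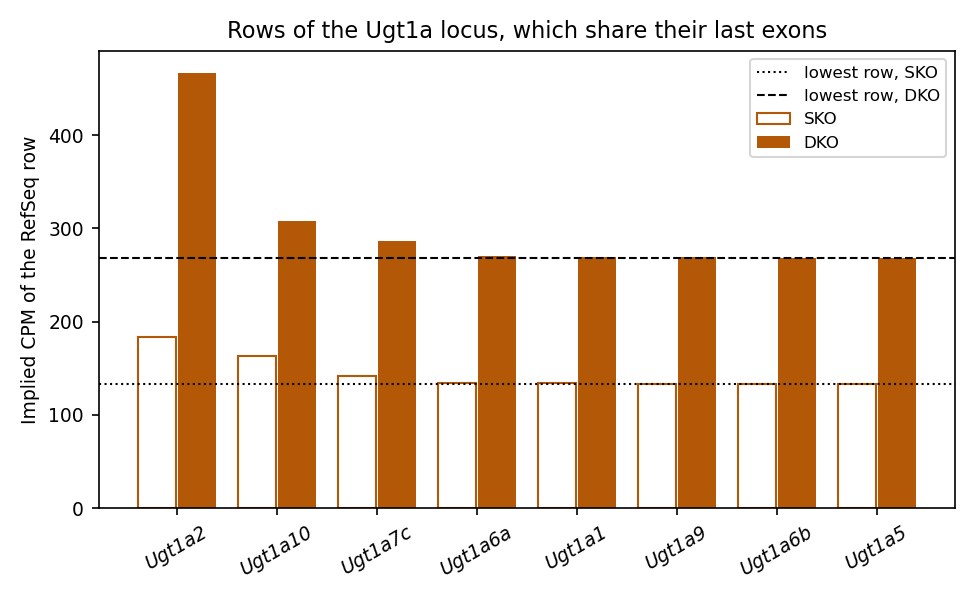
Implied CPM (vertical axis) in SKO (open bars) and DKO kidneys (filled bars) for the 8 RefSeq rows of the *Ugt1a* locus, with lines at the lowest row of each group. No error bars are drawn, since the table has no values of single kidneys. *Ugt1a2* stands 199 CPM above the lowest row in DKO and 50.9 CPM above it in SKO kidneys, while 5 rows sit on the lines.

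Outside this locus, the UGT3 genes on chromosome 15 rose together. *Ugt3a2* went from an implied 72.1 to 227 CPM, a log2 fold change of 1.65 (SE 0.43, edgeR adjusted p = 0.00482), and *Ugt3a1* from 7.78 to 27.4 CPM, a log2 fold change of 1.82 (SE 0.52, edgeR adjusted p = 0.0103). Their fold changes differed by 0.16 (combined SE 0.67), a difference smaller than its error. They share under 10% of their 51-base stretches with other transcripts. *Ugt2b34*, on chromosome 5, rose from 14.7 to 39.4 CPM, with a log2 fold change of 1.42 (SE 0.36, edgeR adjusted p = 0.00291). *Ugt2b38* had the lowest value among UGT genes of at least 1 CPM, 0.61, with a wide SE of 0.92 at 2.58 CPM (edgeR adjusted p = 0.801), and 36.8% of its 51-base stretches occur in other genes. The remaining 5 *Ugt2b* and all 3 *Ugt2a* genes were below 1 CPM and none was called. With the *Ugt1a* locus counted once by *Ugt1a2*, the implied UGT sum went from 282 to 765 CPM, or 2.71-fold, and *Ugt1a2* gave 62.2% of it.

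Sulfotransferases of the first subfamily carried the SULT signal. *Sult1d1* (chr5:87554645-87569027, reverse strand), which sulfates catecholamines and other phenols, was by far the most abundant at 285 CPM. Its implied level was 162 CPM in SKO and 408 CPM in DKO kidneys, a log2 fold change of 1.33 with an SE of 0.58. With an unadjusted p of 0.0227 and an edgeR adjusted p of 0.143 it was not called. *Sult1c2* was called higher, from 25.9 to 56.7 CPM, with a log2 fold change of 1.13 (SE 0.31, edgeR adjusted p = 0.00662). *Sult1b1*, a thyroid hormone sulfotransferase next to *Sult1d1*, was also called, from 1.85 to 5.79 CPM, at 1.65 (SE 0.55, edgeR adjusted p = 0.0348). *Sult1c2* thus passed at a smaller fold change than *Sult1d1*, with the smallest SE of these genes. *Sult1a1*, the phenol sulfotransferase, had 1.15 (SE 0.45, 19.2 CPM) with an unadjusted p of 0.0102 and an edgeR adjusted p of 0.0856. Its 5 transcripts listed ranged from 0.06 to 1.15.

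Other sulfotransferases were rare in these kidneys. *Sult5a1* had a log2 fold change of -0.48 (SE 0.44) at 1.08 CPM and was not called. *Sult4a1*, best known from the brain, was the 1 member called lower, at -2.27 (SE 0.78, edgeR adjusted p = 0.0456), but its mean level was only 0.159 CPM, and the call was lost (edgeR adjusted p = 0.0547) with adjustment over 1 row per gene. *Sult2b1*, which sulfates cholesterol and related steroids, had -1.24 (SE 0.53) at 0.669 CPM, with an unadjusted p of 0.0196 and an edgeR adjusted p of 0.131. *Sult1e1*, the estrogen sulfotransferase, was at 0.0450 CPM. The *Sult2a* genes, the hydroxysteroid and bile acid sulfotransferases of liver, were all below 1 CPM, and 8 SULT genes in all were listed with a log2 fold change of exactly 0. The SULT sum over all 18 genes went from an implied 206 to 499 CPM, or 2.43-fold, with *Sult1d1* giving 80.9% of it. That sum therefore rests mostly on a gene whose own change missed the threshold.

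Levels can be compared between genes only per length. In CPM per kb of the RefSeq transcript, *Ugt1a2* went from 83.1 in SKO to 211 in DKO kidneys and *Sult1d1* from 66.4 to 167. *Gstm1* was at 72.5 and 83.2, and *Gsta2* moved from 25.5 to 111. On this scale *Gsta2* was below *Gstm1* in SKO kidneys and above it in DKO kidneys. *Ugt3a2* went from 30.9 to 97.3 and *Sult1c2* from 12.5 to 27.7 CPM per kb. *Ugt1a2* includes the reads of the shared exons of its locus on this scale.

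**Figure D4:**
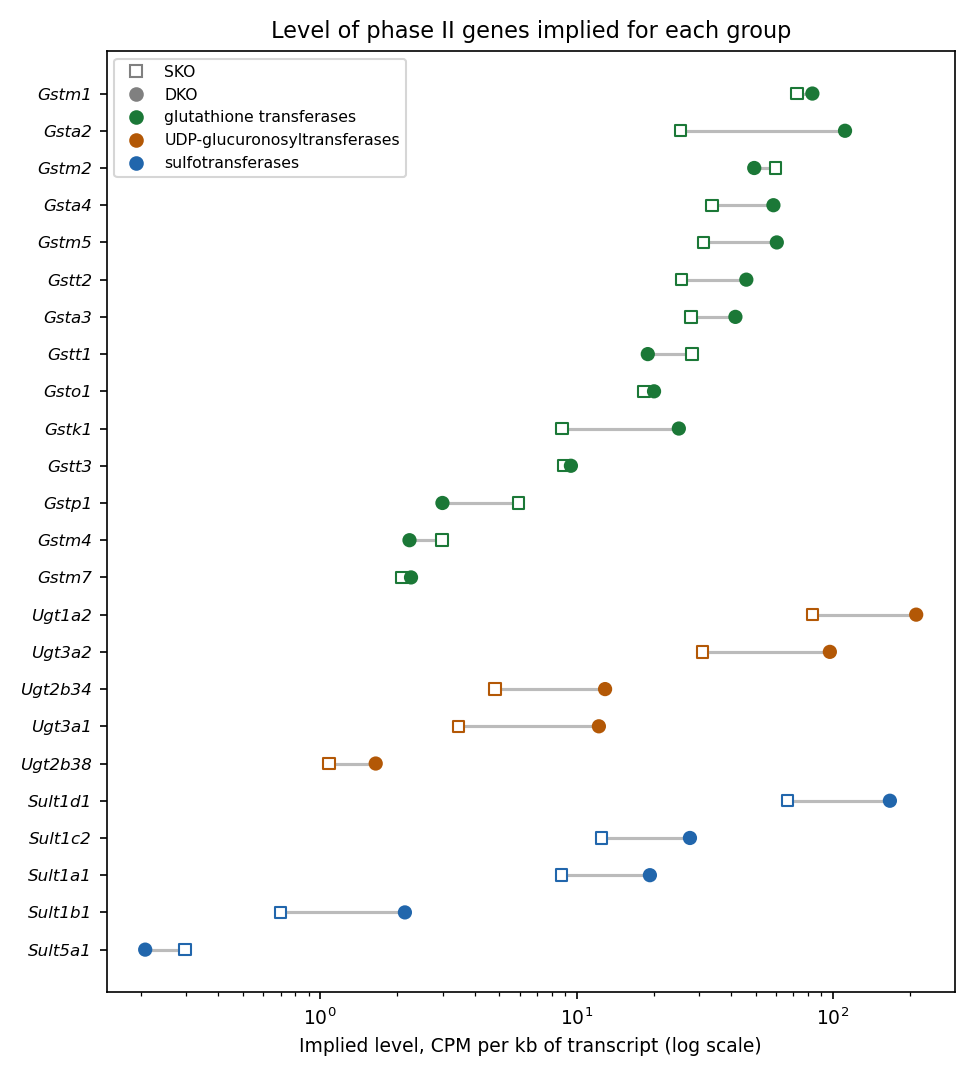
Implied level in CPM per kb of transcript (horizontal axis, log scale) in SKO (open squares) and DKO kidneys (filled circles) for phase II genes with at least 1 CPM, by family, with *Ugt1a2* as the only row drawn from its locus. Lines join the groups of a gene and are not errors. *Gsta2* moves from 25.5 to 111 and passes *Gstm1*, which is at 72.5 and 83.2.

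Promoters were compared for short motifs of factors known to act on conjugation genes, using the RefSeq sequences for GRCm38.p6, the assembly called mm10, from 250 bases before to 50 after each start. A promoter was found for 50 of the 58 genes and for 27025 genes in all. The antioxidant response element core TGACNNNGC, which is known from inducible glutathione transferase genes, was present on either strand in 3 of the 50 members (6%), *Gsta3*, *Gstm5* and *Gstm7*, and in 3781 of the 27025 genes. None of the 3 was called in DKO kidneys, although *Gstm5* missed narrowly at an edgeR adjusted p of 0.0522. The sequences below are the 140 bases just upstream of the start in the transcribed direction, with the match in capitals. They are shown for *Gstm5* and *Gsta3*, which hold the motif there and were not called, and for *Gsta2* and *Ugt1a2*, which rose and hold no match in this window. These genes were picked by motif and call, and sequence outside the searched window was not examined. The *Gsta2* start used lies inside the gene span given above, and the *Gstm5* and *Ugt1a2* starts used also lie inside their annotated genes. The last bases shown for *Ugt1a2* therefore fall in the first exon given above, and upstream refers to the start used.
Gstm5, chr3:107895714-107895853, forward strand: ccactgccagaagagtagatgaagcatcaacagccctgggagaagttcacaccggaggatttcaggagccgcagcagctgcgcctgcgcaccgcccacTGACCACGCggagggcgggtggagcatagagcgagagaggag
Gsta3, chr1:21240445-21240584, forward strand: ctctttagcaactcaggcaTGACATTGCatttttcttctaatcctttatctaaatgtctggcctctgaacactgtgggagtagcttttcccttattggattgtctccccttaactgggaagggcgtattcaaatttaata
Gsta2, chr9:78347146-78347285, reverse strand: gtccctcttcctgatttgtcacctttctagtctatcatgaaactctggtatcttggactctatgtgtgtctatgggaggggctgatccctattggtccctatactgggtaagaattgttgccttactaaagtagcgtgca
Ugt1a2, chr1:88200471-88200610, forward strand: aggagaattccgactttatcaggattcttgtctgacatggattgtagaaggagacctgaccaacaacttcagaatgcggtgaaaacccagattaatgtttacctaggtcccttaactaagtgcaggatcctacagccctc
The match begins 42 bases upstream of the start in *Gstm5* and 121 in *Gsta3*. The hepatocyte nuclear factor 4 motif CAAAGTCCA (0.555% of all genes) and the direct repeat AGGTCANAG (2.31% of all genes) were each found in *Sult1b1* alone. These matches describe letters in a window, and binding was not measured.

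Genes that supply the cofactors were examined from a list of related genes. Of all gene symbols, 3.76% were called higher and 3.6% lower, and counts from these lists stand beside that share. For sulfate, *Papss2*, a synthase of PAPS, rose from an implied 78.3 to 311 CPM, a log2 fold change of 1.99 (SE 0.39, edgeR adjusted p = 5.64e-05). Its paralog *Papss1* had -0.47 (SE 0.34, 41.5 CPM, edgeR adjusted p = 0.441), so the pair differed by 2.46 (combined SE 0.51), which was not tested. *Slc26a1*, a sulfate transporter, had 1.44 (SE 0.46, edgeR adjusted p = 0.0280). *Bpnt1*, which breaks down the nucleotide left after sulfate transfer, had 1.05 (SE 0.30, edgeR adjusted p = 0.0113). In all, 3 of the 10 measured genes of sulfate activation and release were called higher and 0 lower, with a median of 0.26. *Slc13a1*, a sodium-sulfate transporter of the brush border, had 0.67 (SE 0.37, 78.0 CPM) and was not called.

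The donor of glucuronic acid showed no such call. None of the 5 genes of UDP-sugar supply and release passed edgeR's adjusted threshold, and 1 had an unadjusted p under 0.05. With 3.76% of all gene symbols called higher, 0 of 5 does not set this list apart. *Ugdh*, which makes UDP-glucuronic acid, had 0.24 (SE 0.33, 39.5 CPM), and *Ugp2*, which makes its precursor, had 0.86 (SE 0.41, 57.9 CPM, edgeR adjusted p = 0.197). Of 18 genes of glutathione supply and of glutathione transferases outside the chosen classes, 2 were called higher and 0 lower, with a median of 0.71 over the 16 with at least 1 CPM. *Gstz1*, the zeta class enzyme of tyrosine breakdown, had 1.33 (SE 0.31, 82.4 CPM, edgeR adjusted p = 0.00101), and *Ggct*, of the glutathione cycle, 1.25 (SE 0.38, 4.91 CPM, edgeR adjusted p = 0.0193). The subunits of the rate-limiting glutathione synthesis enzyme, *Gclc* and *Gclm*, had 0.56 (SE 0.32) and 0.76 (SE 0.31) and were not called.

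Other conjugation routes had more calls than the cofactor genes. Of 14 genes, 10 were called higher and 0 lower, beside 3.76% and 3.6% of all gene symbols. The median was 1.48 over the 12 with at least 1 CPM. *Glyat*, which joins glycine to acyl groups, went from an implied 28.1 to 109 CPM at 1.95 (SE 0.43, edgeR adjusted p = 0.000495). *Acsm2*, a medium-chain acyl-CoA synthetase that prepares such acyl groups, had 1.64 (SE 0.40, 419 CPM, edgeR adjusted p = 0.00200). The thiol methyltransferase *Tpmt* had 1.54 (SE 0.41, 31.6 CPM, edgeR adjusted p = 0.00584). Among 14 regulators of conjugation genes, 1 was called higher and 0 lower, with a median of -0.16 over the 13 with at least 1 CPM. The called gene was *Ppara*, at 0.91 (SE 0.29, edgeR adjusted p = 0.0268). *Nfe2l2*, which encodes the factor that binds antioxidant response elements, had -0.59 (SE 0.29, edgeR adjusted p = 0.212) and *Ahr* -0.86 (SE 0.33, edgeR adjusted p = 0.0777).

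**Figure D5:**
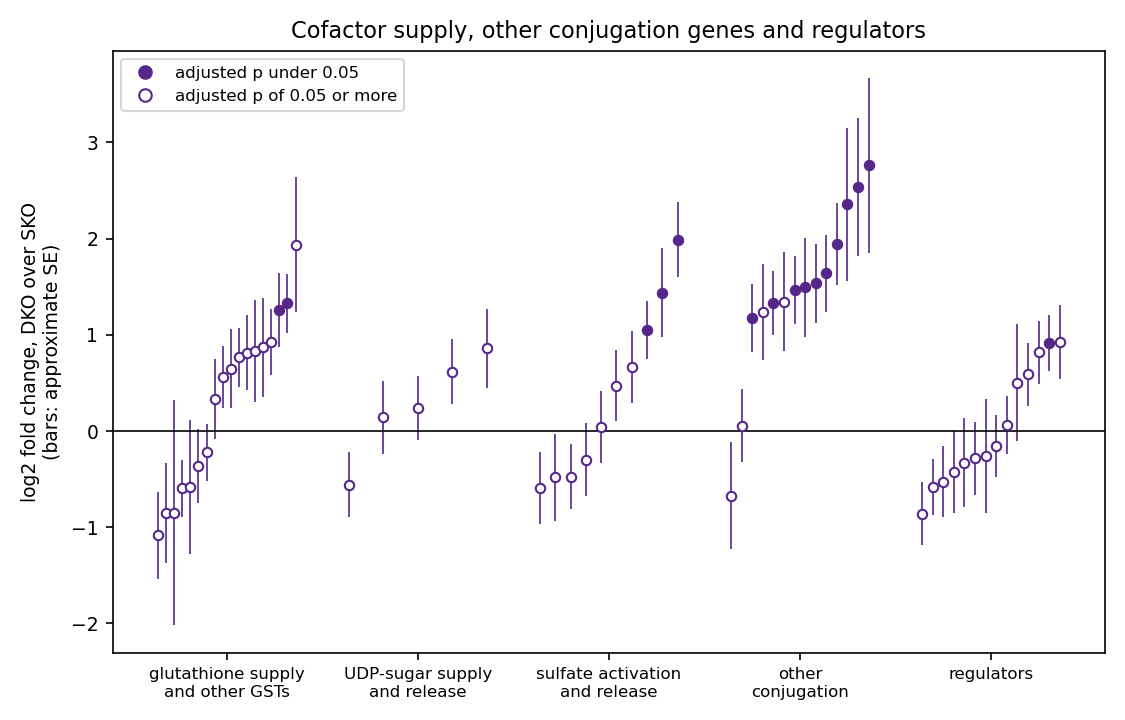
Log2 fold change of DKO over SKO kidneys (vertical axis) with bars of 1 approximate SE for each gene of 5 lists of related genes, sorted within a list. Filled points passed an adjusted p of 0.05. Filled points are 10 of 14 in the list of other conjugation genes, 3 of 10 for sulfate, 2 of 18 for glutathione, 1 of 14 for regulators and 0 of 5 for UDP-sugars. Of all gene symbols, 3.76% were called higher and 3.6% lower.

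Markers of kidney cells moved in different directions by cell type. Of all genes of at least 1 CPM, 5.44% were called higher and 5.02% lower. All 12 proximal tubule markers were above 0 and 10 were called higher. The median of their log2 fold changes was 1.41, and their summed implied level went from 2004 to 5660 CPM. The family medians were 1.01 or 1.42 by locus for UGT, 1.15 for SULT and 0.16 for GST genes. The podocyte median given below, 1.10, lay within the range of the UGT and SULT medians too, so nearness to the proximal tubule value was not particular to that list. Of 6 fibroblast markers 4 were called lower, with a median of -1.28 and a summed level from 1129 to 494 CPM. Of 5 macrophage markers 2 were called lower, with a median of -0.88 and a sum from 91.4 to 39.0 CPM. Thick ascending limb and distal tubule markers had 2 of 5 called higher and a median of 0.75, collecting duct markers 1 of 6 higher and 1 lower and a median of -0.51. Podocyte markers had 2 of 4 called higher with a median of 1.10, and endothelial markers 1 of 5 with -0.31. The share of these cells in the changes of the conjugation genes was not tested.

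Markers of a liver cell were also measured, since several of these enzymes are abundant there. All 5 hepatocyte genes were above 0, with a median log2 fold change of 2.48, or 1.99 over the 4 of at least 1 CPM. Of the 5, 2 were called higher, beside 3.76% of all gene symbols. They were *Alb* at 4.10 (SE 1.37, 13.4 CPM, edgeR adjusted p = 0.0366) and *Ttr* at 2.83-fold (18.2 CPM, edgeR adjusted p = 0.0282). The summed implied level of all 5 went from 18.1 to 62.6 CPM, and the rarest of them, *Cyp3a11* at 0.152 CPM, had 3.86 (SE 1.61, edgeR adjusted p = 0.117). The *Sult2a* genes, which are typical of liver, were all below 1 CPM, too low for a usable comparison. *Sult2a3* was listed at 3.64 (SE 1.69, edgeR adjusted p = 0.175) and the others at exactly 0. Several conjugation enzymes of the mouse kidney are known to differ between the sexes. *Xist*, transcribed from the inactive X chromosome of females, had a log2 fold change of 8.71 (SE 2.09, edgeR adjusted p = 0.00164), with an implied level of 0.812 CPM in SKO and 340 CPM in DKO kidneys. *Kap*, a kidney gene induced by androgen, had 2.49 (SE 0.67, edgeR adjusted p = 0.00603). *Xist* is a transcript of females and androgen a male hormone, so these rises do not point to the same sex. The Y-linked *Ddx3y*, *Uty*, *Eif2s3y* and *Kdm5d* ranged from -0.59 to 0.30 with SEs of 1.33 to 1.43. The study's methods state that males and females were used in equal number, but the sex of each mouse is not in the labels. The groups may therefore differ in sex, and the part of sex in the fold changes of the conjugation genes was not tested.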

How the data were processed

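Total kidney RNA was made into stranded libraries and sequenced from 1 end to 51 bp. After trimming, the authors aligned reads with TopHat 2.0.12 to mm10 with the iGenomes annotation and removed alignments of mapping quality below 10. The submitters' processing notes also name bcl2fastq 1.8.4, Cufflinks, featureCounts of Subread 1.4.6 and edgeR 3.2.4. The deposited log2 values are fold changes of DKO over SKO and mean log2 CPM, the deposited score is edgeR's statistic from glmLRT, and the deposited p-value is given raw and adjusted over 54721 transcripts. Both p-values were recomputed and matched. No column holds a single sample, so counts, depth and replicate spread were unknown and the deposited statistics were used, with no interval set from depth. Python 3.11.15, pandas 2.3.3 and scipy 1.17.1 were used, and the scripts were tested on simulated data. Genes named in full were those called, the 3 most abundant and the extreme members of each family, and those passing only an unadjusted p at 1 CPM or more, 26 in all. Other members, pairs of paralogs and the cell markers are given for context. Members and lists were chosen with earlier results of these data known. Shared 51-base stretches were counted between transcripts of the GENCODE annotation of GRCm38. The alternatives were another threshold, adjustment, reference distribution, row, filter or centring. Some results on listed genes, and those of 1 of the 4 promoter motifs searched, are not reported here.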

Additional observations from a re-analysis of the deposited data

How the results depend on the processing

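Referring the likelihood ratio statistic to an F distribution allows for the error of an estimated spread. With 14 denominator degrees of freedom 2 of the 16 calls were left, both in GST (*Gsta2* and *Gstk1*), with 0 in UGT and 0 in SULT. With 4, the residual degrees of freedom of 6 kidneys, 0 calls were left in all phase II genes and in each family. At that setting *Gsta2* and *Gstm5* shared an F-reference adjusted p of 0.520, so the 0 says little about these genes. The shares of all genes called under the F references are not given. The number of calls therefore depended most on the reference distribution. Counting the *Ugt1a* locus as 1 gene gave 10 calls in all, 4 in UGT, and a UGT median of 1.42. At an unadjusted p under 0.05 from edgeR's likelihood ratio test there were 24 members, counting both directions, with 6 GST and 7 SULT genes. They include genes near the floor, such as *Sult2a3* at 0.0352 CPM, and the matching share of all gene symbols is not given. Of genes of at least 1 CPM, 11.3% were higher and 12.4% lower at that threshold. The GST median moved from 0.16 to 0.58 at a mean of at least 5 CPM, and the SULT median from 1.15 to 0 with no filter, where 8 genes are listed at a fold change of 0. Using the RefSeq row, the row with the largest p or centring on the median gene changed no call of the 26 genes named, while adjustment over 1 row per gene ended 1 call and adjustment over genes of at least 1 CPM added 1. No direction reversed among the 26 named genes, the counts and the medians. *Sult6b1*, at under 1 CPM and not among them, was at -0.42 in its most abundant row and at 2.64 in its RefSeq row. Leaving out replicates, edgeR's quasi-likelihood test and DESeq2 were not run, since each needs values of single samples. No paired analysis was possible because the table holds no column of a single sample. Depth per library is unknown, so calls for genes under 1 CPM, *Gsto2* and *Sult4a1* among them, rest on few reads.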
